A study of Saccharomyces cerevisiae with 6 samples.

Results

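Splicing of 10 introns was followed in 10 nuclear genes of Saccharomyces cerevisiae whose proteins work in mitochondria. The genes are COX4 and COX5B (cytochrome c oxidase), QCR9 and QCR10 (the cytochrome bc1 complex), RCF3, CMC2 and ERV1 (assembly and import), CQD1 (coenzyme Q), and MRPL44 and YML6 (the mitochondrial ribosome). They were chosen by name, for the compartment of their proteins, from a targeted table of 309 introns in 298 genes. Earlier results of these data were known at that choice. Each has 1 intron in that table. The libraries were made by multiplexed primer extension sequencing. Here reverse transcription starts from a pool of primers that bind just 3′ of chosen introns, and a read then runs either into the intron (an unspliced read) or across the joined exons (a spliced read). A total is the sum of both. There were 3 libraries (A, B and C) of the wild type (WT, strain EJS1) and 3 of the mutant prp2-1 (strain EJS7), from cells grown at 25 °C in rich medium and moved to 37 °C for 15 minutes, the WT cells included. Each genotype is thus represented by 1 strain, and the labels do not tie the 3 libraries of a strain to separate cultures, so the p-values measure only the spread between these libraries.

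Mitochondria keep a small genome of their own, and nearly all of their proteins are encoded in the nucleus, translated in the cytosol and imported. Their pre-mRNAs are therefore spliced by the nuclear spliceosome, as any other. The respiratory complexes III (cytochrome bc1) and IV (cytochrome c oxidase) pass electrons to oxygen, and the mitochondrial ribosome makes their few mitochondrially encoded subunits. Prp2 is an RNA-dependent ATPase that remodels the assembled spliceosome just before the first catalytic step, and prp2-1 is a temperature-sensitive allele. Yeast introns are recognised at the donor (5′ splice) site, for which the usual letters are GTATGT, at the branch site, with the usual letters TACTAAC, and at the acceptor (3′ splice) site, which ends in AG.

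The annotation of build R64 placed 9 of the 10 introns between coding exons. The COX4 intron has no position there, since that annotation gives its gene 1 coding exon, and no sequence of it is shown. The 6 introns printed here are those on which the results turn, namely the introns with the largest and the smallest change between the strains, the intron with no spliced read, and the partner of QCR9. Each is the whole intron from the RefSeq R64 genome, 5′ to 3′ on the strand of the gene. Capitals mark the first 6 bases, an exact TACTAAC where there is one, and the last 3 bases.
YML6 (YML025C), chrXIII:225240-225338, minus strand: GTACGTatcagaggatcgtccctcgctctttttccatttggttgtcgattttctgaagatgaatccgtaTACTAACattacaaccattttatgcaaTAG
CQD1 (YPL109C), chrXVI:345445-345596, minus strand: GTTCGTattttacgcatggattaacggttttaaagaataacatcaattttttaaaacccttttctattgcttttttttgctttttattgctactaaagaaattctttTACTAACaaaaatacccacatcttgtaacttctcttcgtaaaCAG
COX5B (YIL111W), chrIX:155223-155310, plus strand: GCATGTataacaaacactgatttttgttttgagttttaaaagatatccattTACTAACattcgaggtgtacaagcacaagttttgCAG
QCR10 (YHR001W-A), chrVIII:107832-107894, plus strand: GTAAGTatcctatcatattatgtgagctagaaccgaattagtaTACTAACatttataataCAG
ERV1 (YGR029W), chrVII:543639-543721, plus strand: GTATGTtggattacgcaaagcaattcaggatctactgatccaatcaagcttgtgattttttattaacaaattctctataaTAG
RCF3 (YBR255C-A), chrII:726918-727011, minus strand: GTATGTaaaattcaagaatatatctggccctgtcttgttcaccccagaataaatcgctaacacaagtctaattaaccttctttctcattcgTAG

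The 9 placed introns ran from 63 bases in QCR10 to 213 in QCR9, with a median of 94. All followed at most 86 coding bases except that of CQD1, which follows 1793 of 1974 coding bases and so lies near the 3′ end of the gene. GTATGT was exact at the start of 4 of them (44.4%), in RCF3, ERV1, QCR9 and MRPL44, against 205 of all 280 placed introns (73.2%) and 137 of the 189 placed introns outside ribosomal protein genes (72.5%). Counting positions from 1 at the 5′ end of GTATGT, CMC2 and QCR10 carried T4A, YML6 carried T4C, CQD1 carried A3T and T4C, and COX5B carried T2C, so that its intron opens with GC. TACTAAC, searched on the gene's strand, was exact in 7 of the 9 (77.8%), against 82.5% of all placed introns and 77.2% of those outside ribosomal protein genes. It was missing in ERV1 and RCF3. The nearest stretch in ERV1 was TATTAAC, which differs by C3T and leaves 16 bases to the 3′ end of the intron. In RCF3 the nearest stretches differed by 2 bases, as in AATTAAC (T1A and C3T). From the end of TACTAAC to the end of the intron there were 13 bases in QCR10, 20 in QCR9, 23 in YML6, 27 in CMC2, 30 in COX5B, 32 in MRPL44 and 38 in CQD1. With the intron left in and read in frame from the first annotated coding base, a stop codon fell inside it in 8 of the 9. The exception was CMC2. The same held for 267 of all 280 placed introns and 176 of the 189 outside ribosomal protein genes. COX5B is among the 8, but its intron follows only 1 coding base and so splits the start codon. Its annotated reading frame would not begin with the intron left in. These matches are a description of letters and say nothing of use by the spliceosome.

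**Figure D1:**
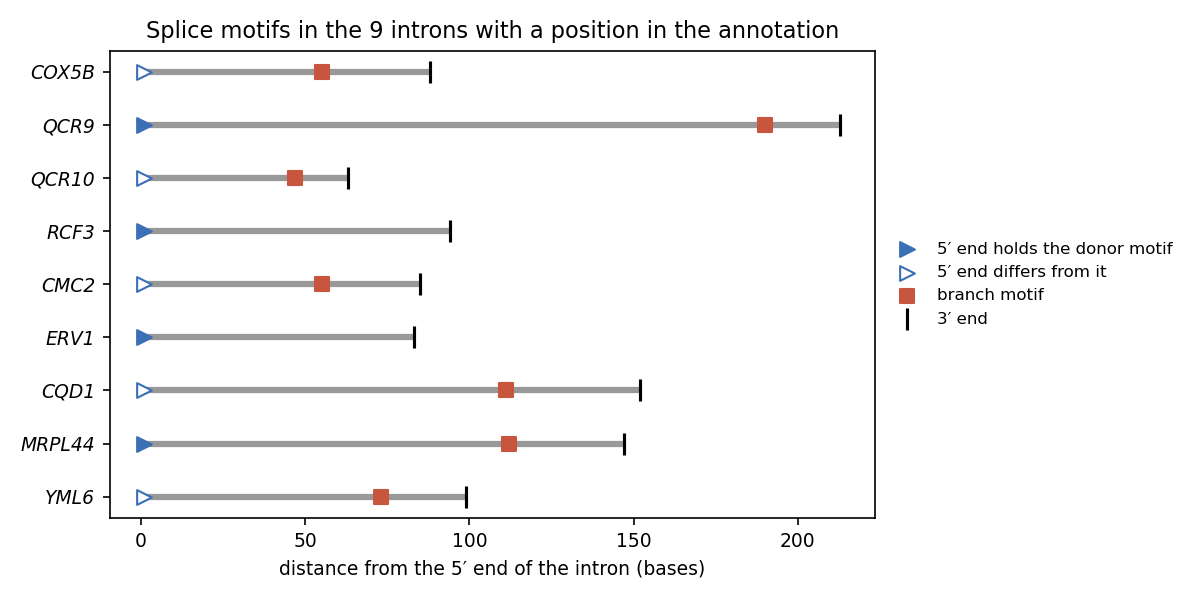
The 9 placed introns drawn to scale, with the distance from the 5′ end of the intron in bases on the x axis and 1 gene per row, with a filled triangle for an exact donor GTATGT, an open triangle for another donor, a square for an exact TACTAAC and a bar for the 3′ end. The introns of ERV1 and RCF3 carry no exact TACTAAC, and the QCR9 intron, at 213 bases, is the longest.

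Library totals ranged from 1612685 to 2671271 counted reads. An intron was tested when its mean total over the 6 libraries was at least 10 reads, which 274 introns met, 170 of them outside ribosomal protein genes. All 10 introns of the mitochondrial set met it. Unspliced reads were 1.73 to 1.88% of all reads in WT and 7.47 to 11.0% in prp2-1. The prp2-1 replicate C had, relative to its library total, the most reads of its group in 9 of the 10 introns. Intron 1 of HMRA1, the name under which the table counts the mating type transcript a1, had 4902, 5603 and 6526 reads in WT and 6, 1 and 2 in prp2-1, so the strains also differed in a1 transcript, and this cannot be told apart from the prp2-1 genotype. Its part in the results was not tested. The 9 markers of other cell states together took 0.273 to 0.315% of WT reads and 0.00962 to 0.0180% of prp2-1 reads, and most of the WT reads were those of HMRA1. The meiotic introns among them had 66, 99 and 153 spliced and 111, 154 and 181 unspliced reads in WT, and 38, 58 and 47 spliced and 187, 198 and 360 unspliced reads in prp2-1. Of these 9 introns, 4 to 6 had no spliced read in a WT library and 5 to 7 had none in a prp2-1 library.

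In prp2-1 the reads of the mitochondrial introns were mostly unspliced. The median over the 10 introns of the unspliced percent (unspliced reads over total reads) was 12.7% ± 1.92 (SD, n = 3) in WT and 96.9% ± 0.572 (SD, n = 3) in prp2-1. The same median was 10.5% ± 0.410 and 91.1% ± 3.03 over the tested introns outside ribosomal protein genes, and 3.69% ± 0.115 and 47.4% ± 6.21 over all tested introns (SD, n = 3 each). The unspliced to spliced ratio rose in 9 of the 10 by edgeR's quasi-likelihood test, with Benjamini-Hochberg adjustment over all tested introns and a threshold of 0.05. It fell in 0, with 0 lower also at an unadjusted p under 0.05, by DESeq2 and by limma-voom. The background is just as one-sided, since 93.4% of all tested introns rose and 0% fell, so the count of these genes is close to that of all introns. Their median log2 change was 7.88 over the 9 introns with spliced reads, also with CQD1 at its bound. It was 4.64 over all tested introns and 5.40 over those outside ribosomal protein genes. Both backgrounds keep introns without a spliced read at their fitted values, since 266 of the 274 and 162 of the 170 had any. The unspliced percents of the strains did not overlap in 9 of the 10 (background 92%). COX5B was the exception on both counts.

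**Figure D2:**
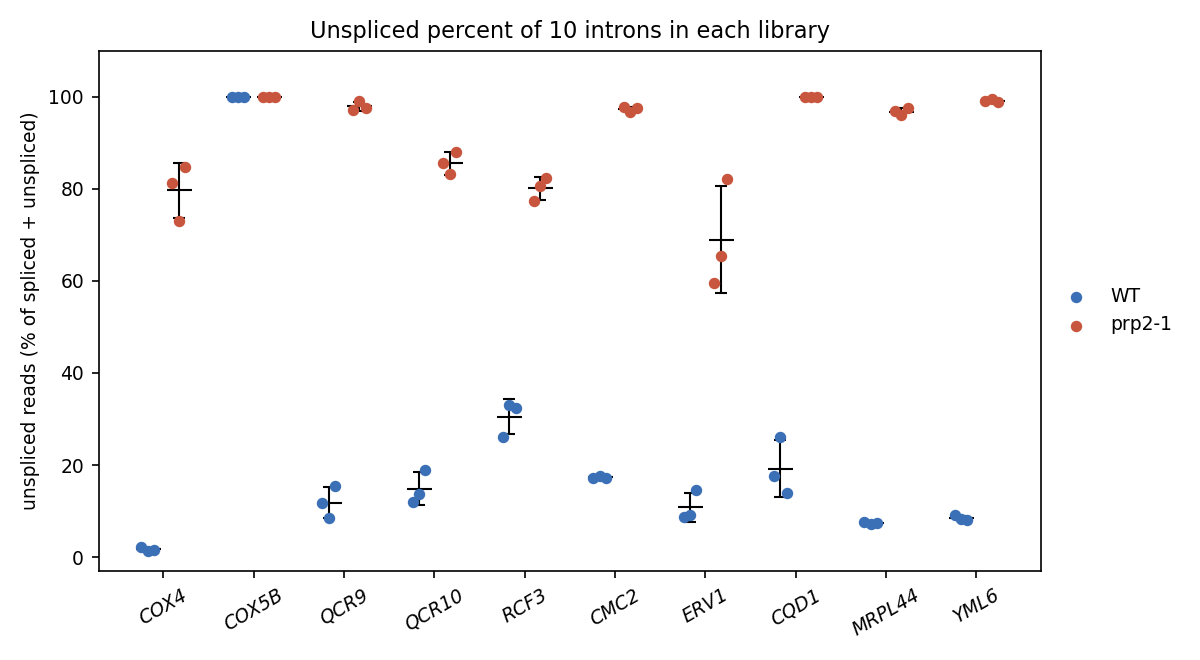
Unspliced percent of each of the 10 introns, with the percent on the y axis, genes on the x axis, 1 point for each of the 3 WT and 3 prp2-1 libraries, and bars for the mean ± SD. In all but COX5B, which stood at 100% throughout, the prp2-1 points lie above every WT point of the same intron.

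COX4 encodes a subunit of cytochrome c oxidase, and its transcript was the most fully spliced of the set in WT. WT libraries A, B and C held 986, 1377 and 1674 spliced reads against 21, 19 and 27 unspliced. The prp2-1 libraries held 23, 48 and 34 spliced against 100, 130 and 188 unspliced. Spliced reads were thus far below every WT library in every prp2-1 library, while unspliced reads were above. The unspliced percent was 1.68% ± 0.371 in WT and 79.7% ± 5.99 in prp2-1 (SD, n = 3 each). The ratio rose 240-fold (95% exact interval of the summed reads 172 to 336), a log2 change of 7.88 (SE 0.42, edgeR adjusted p = 2.18e-14).

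COX5B encodes the form of subunit 5 of the same oxidase that is made when oxygen is low. No spliced read was counted in any library. Unspliced reads numbered 184, 194 and 242 in WT and 805, 1040 and 1479 in prp2-1. The unspliced percent was therefore 100% in both strains, where 0 of 620 WT reads allow a spliced share of up to 0.484% and 0 of 3324 prp2-1 reads a share of up to 0.0903%. A change of the ratio could not be measured for it. Whether the primer and the counting could register a spliced COX5B read was not tested.

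QCR9 and QCR10 encode 2 small subunits of the cytochrome bc1 complex. In WT, QCR9 had 296, 268 and 297 spliced and 39, 25 and 54 unspliced reads. In prp2-1 it had 6, 3 and 8 spliced and 200, 305 and 332 unspliced reads, so almost no spliced product was left. Its unspliced percent went from 11.9% ± 3.43 to 97.9% ± 0.998 (SD, n = 3 each), and the ratio rose 359-fold (95% interval 212 to 639), with an edgeR adjusted p of 1.3e-13. QCR10 had 103, 150 and 155 spliced and 14, 24 and 36 unspliced reads in WT. In prp2-1 it had 12, 14 and 15 spliced and 71, 69 and 111 unspliced reads. A share of spliced QCR10 thus persisted in every prp2-1 library. Its unspliced percent went from 14.9% ± 3.57 to 85.6% ± 2.48 (SD, n = 3 each), and the ratio rose 33.8-fold (21.9 to 52.2), with an edgeR adjusted p of 8.38e-10.

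RCF3 encodes a factor associated with respiratory supercomplexes, the assemblies of complexes III and IV. WT libraries held 99, 116 and 148 spliced and 35, 57 and 71 unspliced reads, and prp2-1 libraries 7, 7 and 9 spliced and 24, 29 and 42 unspliced reads. Both kinds of read were few in prp2-1. RCF3 had the highest WT unspliced percent of the introns with a spliced read, 30.5% ± 3.80, and reached 80.1% ± 2.50 in prp2-1 (SD, n = 3 each). The ratio rose 9.20-fold (5.53 to 15.7), a log2 change of 3.20 (SE 0.52, edgeR adjusted p = 3.59e-06). That was the smallest change of the 9.

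CMC2 encodes a twin CX9C protein of the intermembrane space needed for cytochrome c oxidase. It had 145, 135 and 101 spliced and 30, 29 and 21 unspliced reads in WT, and 7, 7 and 6 spliced and 302, 208 and 233 unspliced reads in prp2-1. The libraries of each strain lay close together, with an unspliced percent of 17.3% ± 0.294 in WT and 97.3% ± 0.516 in prp2-1 (SD, n = 3 each). The ratio rose 177-fold (105 to 307), a log2 change of 7.42 (SE 0.48, edgeR adjusted p = 5.87e-13). In the first of the authors' random draws of 200000, 400000 and 800000 reads per library, the log2 change was smaller, at 5.09, 5.78 and 6.43, and passed the test in each.

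ERV1 encodes the sulfhydryl oxidase that reoxidises Mia40 in the import relay of the intermembrane space. Its WT libraries had 251, 350 and 401 spliced and 24, 35 and 68 unspliced reads. In prp2-1 there were 105, 138 and 104 spliced and 154, 261 and 476 unspliced reads, the largest number of spliced reads of any of the set in that strain. The unspliced percent was 10.8% ± 3.23 in WT and 69.0% ± 11.7 in prp2-1 (SD, n = 3 each), with the prp2-1 libraries at 59.5, 65.4 and 82.1%. ERV1 thus had the lowest mean and the largest SD of the unspliced percent among the 10 in the mutant. Its libraries overlapped those of COX4 there. The ratio rose 20.3-fold (16.1 to 25.5), a log2 change of 4.28 (SE 0.45, edgeR adjusted p = 3.14e-09).

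CQD1 encodes a kinase-like protein of the UbiB family that affects the distribution of coenzyme Q, the lipid electron carrier. WT libraries held 79, 65 and 118 spliced and 17, 23 and 19 unspliced reads. No spliced read was counted in prp2-1, where unspliced reads numbered 66, 95 and 175. The WT unspliced percent was 19.2% ± 6.28 (SD, n = 3), and 0 spliced of 336 prp2-1 reads allow a spliced share of up to 0.893%. The ratio was at least 497-fold higher when 3 counts over the prp2-1 group stand for the 0 (edgeR adjusted p = 2.72e-11). Its fitted change ranked first among the 170 tested introns outside ribosomal protein genes, a place that depends on how 0 reads are handled.

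MRPL44 and YML6 encode proteins of the large subunit of the mitochondrial ribosome. MRPL44 had 580, 502 and 570 spliced and 48, 39 and 45 unspliced reads in WT, against 42, 85 and 68 spliced and 1314, 2023 and 2656 unspliced reads in prp2-1. The gain of unspliced reads was far beyond the spread of either group. Its unspliced percent went from 7.39% ± 0.226 to 96.8% ± 0.774 (SD, n = 3 each), and the ratio rose 385-fold (304 to 486), with an edgeR adjusted p of 1.58e-15. YML6 had 633, 769 and 1176 spliced and 63, 70 and 104 unspliced reads in WT, against 7, 6 and 21 spliced and 825, 1178 and 1672 unspliced reads in prp2-1. Hardly any spliced YML6 was left. Its unspliced percent went from 8.51% ± 0.484 to 99.1% ± 0.367 (SD, n = 3 each). The ratio rose 1176-fold (813 to 1738), a log2 change of 10.25 (SE 0.43, edgeR adjusted p = 5.85e-16), which ranked 6th among the 170 tested introns outside ribosomal protein genes.

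From the lowest to the highest WT unspliced percent, the order was COX4, MRPL44, YML6, ERV1, QCR9, QCR10, CMC2, CQD1, RCF3 and COX5B. The libraries of neighbours did not overlap between COX4 and MRPL44, between MRPL44 and YML6, and between RCF3 and COX5B, while the other neighbours overlapped. In prp2-1 the order was ERV1, COX4, RCF3, QCR10, MRPL44, CMC2, QCR9 and YML6, with CQD1 and COX5B together at 100%. There the neighbours RCF3 and QCR10, QCR10 and MRPL44, and YML6 and the pair at 100% were separated. ERV1 overlapped COX4, and COX4 overlapped RCF3. The order in the mutant was therefore not that of WT, since COX4 was lowest in WT and ERV1 had the lowest mean in prp2-1.

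Introns of genes with related roles were compared in 3 pairs, and each pair lay further apart in prp2-1 than in WT. The log2 ratio (pseudocount 0.5) of QCR9 was 0.40 below that of QCR10 in WT (−0.40 ± 0.35, SD, n = 3) and 3.02 above it in prp2-1 (3.02 ± 1.01, SD, n = 3). YML6 was above MRPL44 by 0.21 ± 0.05 in WT and by 1.92 ± 0.97 in prp2-1, and CMC2 was above ERV1 by 0.84 ± 0.46 and 3.88 ± 0.90 (SD, n = 3 each). The difference between strains was 3.42 for QCR9 and QCR10, 1.71 for YML6 and MRPL44 and 3.04 for CMC2 and ERV1. Exact two-sided permutation tests gave p = 0.1 in each of the 3 pairs, the smallest p that 3 libraries against 3 allow, and 0.1 after adjustment over the 3. The pairs were chosen with the values in view.

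**Figure D3:**
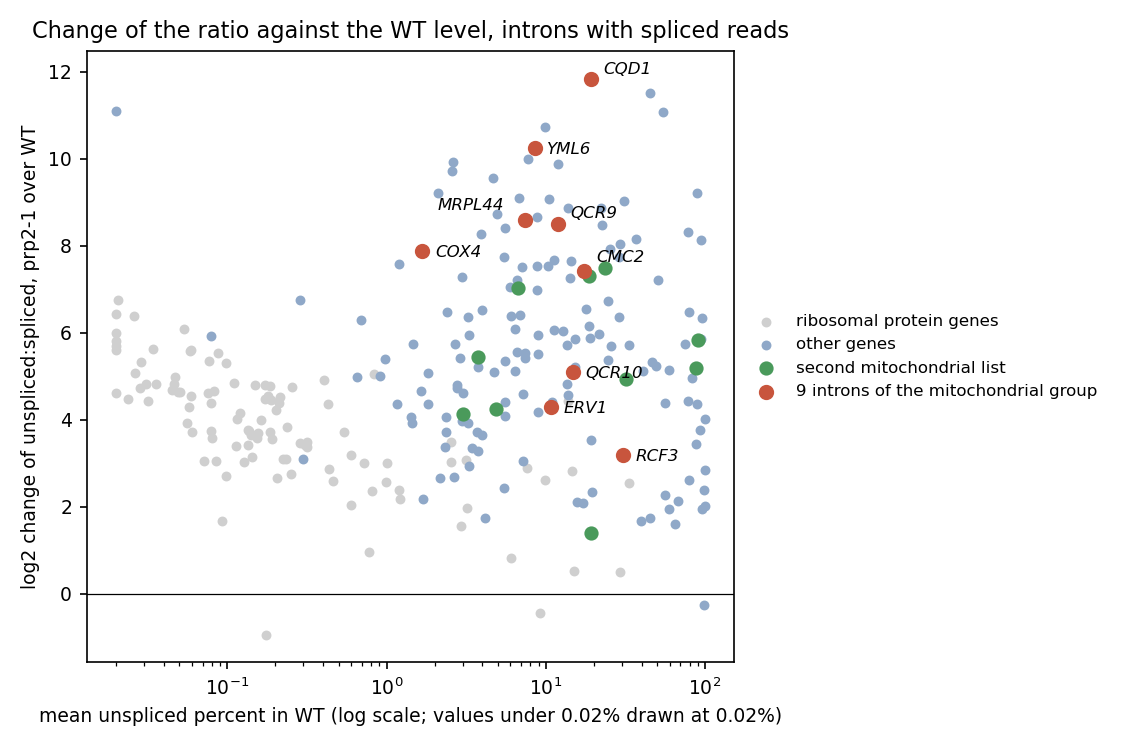
Log2 change of the unspliced to spliced ratio, prp2-1 over WT, on the y axis against the mean WT unspliced percent on the x axis (log scale), for tested introns with spliced reads, with ribosomal protein genes in grey, the second list in green and the mitochondrial introns in red and labelled. The 9 labelled introns with spliced reads lie between 3.20 for RCF3 and 11.84 for CQD1, whose fitted value is not a bound.

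Totals did not move together. Relative to all targeted introns, total reads rose in 2 of the 10, COX5B and MRPL44, fell in 3, COX4, RCF3 and QCR10, and did not pass the test in 5 (edgeR). Of all tested introns 19.7% rose and 23.7% fell, so these shares are near the background. The median log2 change of the 10 was −0.02. In these bulk libraries, fewer cells of a type and less RNA per cell cannot be told apart, and a total counts both forms of the transcript. Totals are given in RPM, the reads of an intron per 1000000 counted reads of the library, and are not compared between genes, since each intron has its own primer.

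COX4, the oxidase subunit, had the deepest fall. Its totals were 624, 704 and 676 RPM in WT and 66.7, 66.6 and 97.8 RPM in prp2-1, and the groups lie far apart. The log2 change was −3.08 (SE 0.20, edgeR adjusted p = 5.8e-06), ranking 4th among falls outside ribosomal protein genes. RCF3 totals were 83.1, 87.2 and 87.0 RPM in WT and 16.8, 13.5 and 22.5 RPM in prp2-1. Its log2 change was −2.25 (SE 0.23, edgeR adjusted p = 3.91e-05). QCR10 fell less, from 72.5, 87.7 and 75.9 to 45.0, 31.1 and 55.5 RPM, a log2 change of −0.81 (SE 0.24, edgeR adjusted p = 0.0230). Without WT replicate B the QCR10 call was lost, with an edgeR adjusted p of 0.0693.

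COX5B, the low-oxygen form of subunit 5, rose from 114, 97.8 and 96.2 to 436, 389 and 652 RPM. Every prp2-1 library was above every WT library, and all of these reads were unspliced. The log2 change was 2.30 (SE 0.22, edgeR adjusted p = 2.84e-05). COX4 and COX5B, which belong to the same complex, moved in opposite directions in total reads, but these totals are unlike. Those of COX5B hold unspliced reads alone, while those of COX4 in WT were mostly spliced reads. In unspliced reads both rose, by 2.52 in COX4 and 2.30 in COX5B on the log2 scale. MRPL44 rose from 389, 273 and 244 to 735, 789 and 1200.4 RPM, a log2 change of 1.63 (SE 0.24, edgeR adjusted p = 0.000473). Its partner in the large ribosomal subunit, YML6, did not pass, with a log2 change of 0.30 (edgeR adjusted p = 0.291). Nor did CMC2 (log2 change 0.60, edgeR adjusted p = 0.176), QCR9 (−0.35, 0.216), ERV1 (0.02, 0.95) or CQD1 (−0.05, 0.909). The groups overlapped in all 5 of these.

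**Figure D4:**
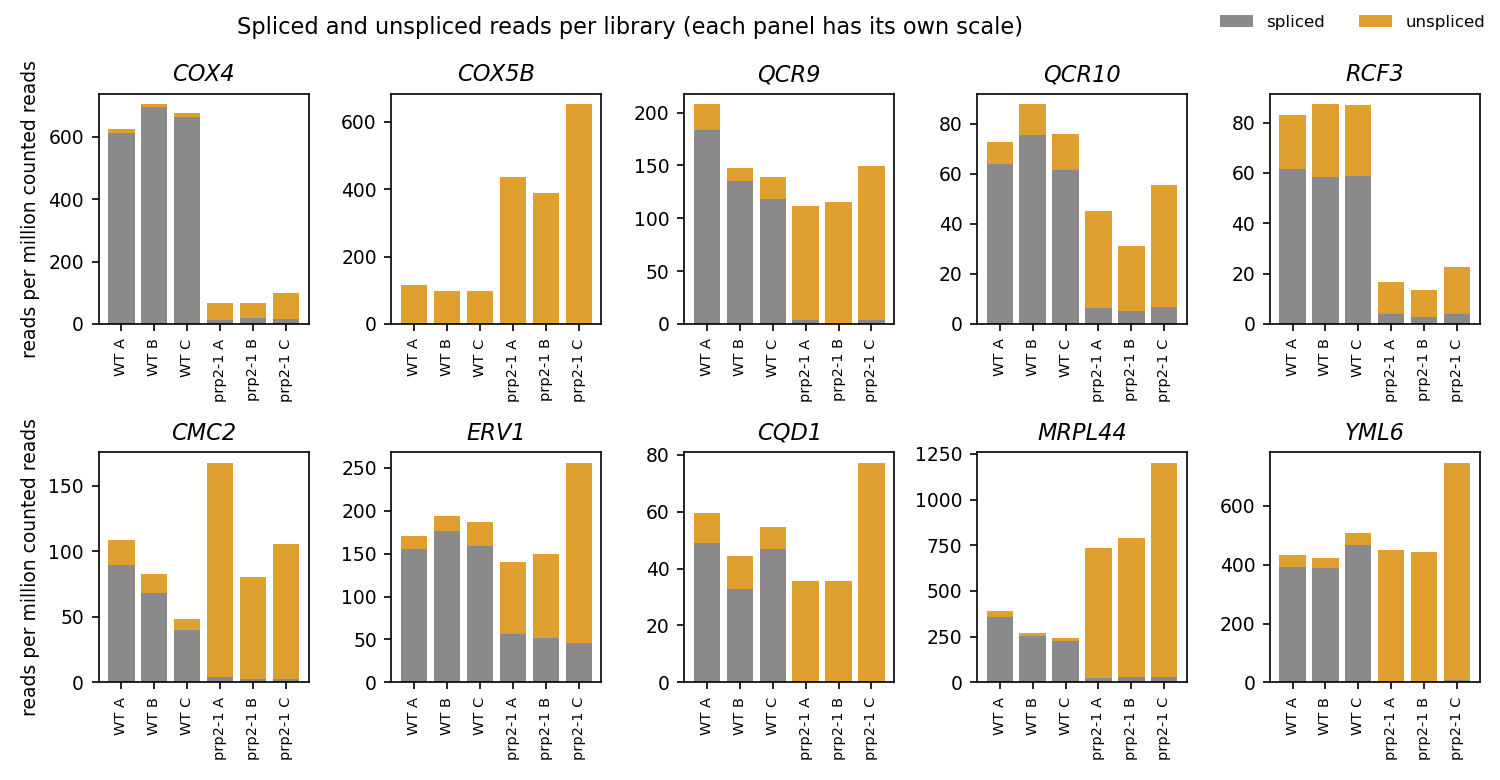
Stacked bars of spliced (grey) and unspliced (orange) reads, in RPM, on the y axis for each of the 6 libraries on the x axis, with 1 panel per gene and a scale of its own in each panel. COX4 and RCF3 totals lie lower and COX5B and MRPL44 totals lie higher in every prp2-1 library than in any WT library.

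Taken by kind of read, spliced reads fell in all 9 introns that had any (edgeR; background 59.4% lower and 6.39% higher). None rose, with 0 higher at an unadjusted p under 0.05, by DESeq2 and by limma-voom. Outside ribosomal protein genes 87.7% of introns fell. The log2 changes of spliced reads were −1.63 in ERV1, −3.26 in MRPL44, −3.41 in QCR10, −4.06 in RCF3, −4.40 in CMC2, −5.38 in COX4, −5.77 in QCR9 and −6.31 in YML6. Spliced CQD1 was at least 96.9-fold lower in RPM. The median of the 9 was −4.40, against −2.85 over introns outside ribosomal protein genes.

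Unspliced reads rose in 9 of the 10 and fell in 1 (edgeR; background 90.9% higher and 2.19% lower). The median log2 change of 2.61 lay beside 2.63 outside ribosomal protein genes. MRPL44 stood highest at 5.34 (SE 0.34), followed by YML6 at 3.84 and CMC2 at 3.10. ERV1 rose by 2.73, QCR9 by 2.70, COX4 by 2.52, CQD1 by 2.37, COX5B by 2.30 and QCR10 by 1.70 on the log2 scale. RCF3 was the 1 that fell, by 0.86 on the log2 scale (SE 0.38, edgeR adjusted p = 0.0260). That call was lost without WT replicate B (edgeR adjusted p = 0.0605), WT replicate C (0.0673) or prp2-1 replicate A (0.0779).

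Gain and loss were set beside each other, both in RPM. The gain of unspliced reads made up 7.91% of the loss of spliced reads in COX4, 42.8% in QCR10 and 72.4% in QCR9. It was 92.3% of the loss in CQD1, 98.3% in ERV1, 122% in YML6, 160% in CMC2 and 341% in MRPL44. Without prp2-1 replicate C, left out after the data had been seen, the figure was 60.1% in CQD1, 64.6% in ERV1, 98.2% in YML6, 170.2% in CMC2 and 282% in MRPL44, so that YML6 was no longer above 100%. Other libraries moved it too. CMC2 was at 121% without prp2-1 replicate A and at 202% without WT replicate A. CQD1 was above 100% without prp2-1 replicate A (108%), prp2-1 replicate B (109%) or WT replicate A (100.2%). ERV1 was above it without prp2-1 replicate A (116%), prp2-1 replicate B (113%) or WT replicate B (103%). In RCF3, where unspliced reads were also lower, the figure over all libraries was −21.6%. The fall of COX4 in total reads is thus a loss of spliced reads with little matching gain. In RCF3 both kinds of read were lower, with a change of −56.1 RPM in spliced and −12.1 RPM in unspliced reads. These percentages assume that both forms are counted equally well, which was not tested.

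**Figure D5:**
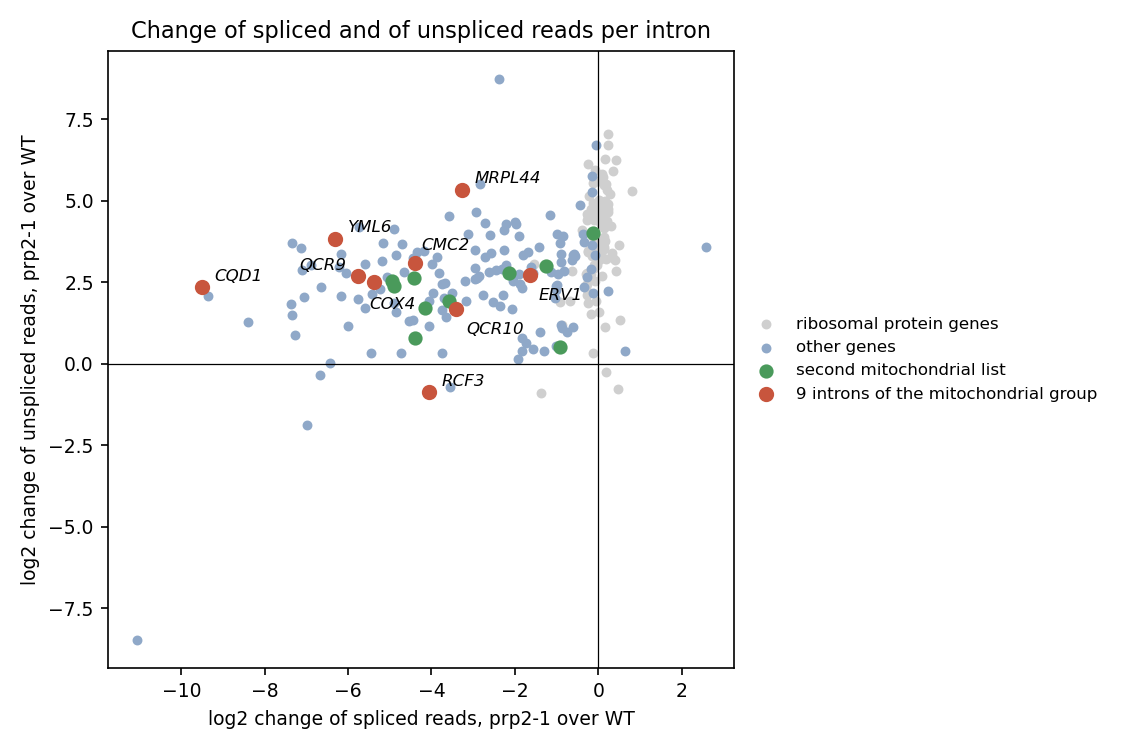
Log2 change of unspliced reads against log2 change of spliced reads, prp2-1 over WT, for tested introns with spliced reads, in the colours of the plot of ratio changes, with the mitochondrial introns labelled. All 9 labelled introns lie left of 0 in spliced reads, and RCF3 alone among them lies below 0 in unspliced reads.

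The 2 placed introns without an exact TACTAAC, RCF3 and ERV1, had the smallest ratio changes of the set, 3.20 and 4.28 on the log2 scale, against 5.09 to 11.84 (median 8.54) in the 6 with it and with spliced reads. Among the second list of mitochondrial genes described next, the median was 5.44 in 5 introns with the exact letters and 5.18 in 5 without. Among the other introns outside ribosomal protein genes, it was 5.24 in 105 introns with them and 5.96 in 27 without, the opposite order. No test was made of the split, which was seen after the values were known. Split by the donor, the 4 introns of the set with another donor and with spliced reads had a median of 8.84, from 5.09 in QCR10 to 11.84 in CQD1, and the 4 with exact GTATGT a median of 6.39. The order was the opposite in the second list (5.18 in 3 introns with another donor and 5.44 in 7 with GTATGT). It was so too in the other introns outside ribosomal protein genes (5.19 in 22 and 5.62 in 110). In both splits, CQD1 and COI1 of the second list enter at fitted values that rest on 0 spliced reads in prp2-1, not at their bounds.

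A further 10 nuclear genes of mitochondrial proteins in the table served for comparison, namely OM14, RIM1, CMC4, TMH18, COI1, PTC7, AIM11, ATG44, MRA1 and IAI11. All were tested, and the ratio rose in all 10 (edgeR, background 93.4%). Their median log2 change was 5.31. It was nearer to 5.38, that of the 150 tested introns outside ribosomal protein genes and both lists, than to the first set's 7.88. Of these 150 introns, 143 had spliced reads. The 150 were not screened for further genes of mitochondrial proteins. With COI1, which had no spliced read in prp2-1, at its bound the median of the second list was 5.06. The difference between the lists was not tested. IAI11, the neighbour of CMC2 on the opposite strand, changed most, by 7.48 (SE 0.81), from 23.7% ± 2.33 to 98.5% ± 1.38 unspliced. It had only 0, 2 and 1 spliced reads in prp2-1, so its place as the largest rests on few reads. The middle pair were MRA1 at 5.44 and CMC4 at 5.18, and CMC4, a twin CX9C protein, was already 88.4% ± 0.962 unspliced in WT. TMH18, a protein of the outer membrane, changed least, by 1.39 (edgeR adjusted p = 0.00444), from 19.2% ± 4.25 to 38.2% ± 5.0 (SD, n = 3 each). Spliced reads fell in 8 of these 10 (background 59.4%, and 87.7% outside ribosomal protein genes). Total reads rose in 3 and fell in 2 (background 19.7% and 23.7%), so these counts are near the background. RIM1, the mitochondrial single-stranded DNA-binding protein, was picked after its values were seen. Its spliced reads moved by only −0.12 (edgeR adjusted p = 0.568) while its unspliced reads rose by 4.01 on the log2 scale.

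Shallower sequencing was mimicked in a further deposited table, for which the authors had drawn 200000, 400000 or 800000 reads from each library, 5 times at each depth. At 400000 and 800000 reads, all 10 mitochondrial introns had enough reads for the test and 9 had a higher ratio (edgeR) in each of the 5 draws, COX5B being the exception. Over all tested introns, the first draws gave 231 of 250 called higher at 400000 reads, 242 of 260 at 800000 and 212 of 237 at 200000. The counts of the set are near these shares. At 200000 reads CQD1, QCR10 and RCF3 were under the minimum, 7 were tested and 6 were called in each draw. The WT unspliced percent of the summed RCF3 reads ran from 14.3 to 35.5% over the 5 draws at that depth, against 31.0% in the full counts, and that of YML6 from 7.62 to 9.34% against 8.42%.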

How the data were processed

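Spliced and unspliced reads per intron were deposited by the authors as raw counts for 6 libraries, with no normalization. The tools named are HISAT2 2.2.1, SAMtools and fastp 0.19.5, with build R64, per the submitters' processing notes. The rule by which a read was called spliced and any collapsing of duplicates are not stated in those notes, so intervals and floors cover counting error only. In the authors' deposited table of drawn reads, the headers of depth and draw number were read as interchanged, since library totals grow with the values under the seed header. The mean library held 137745, 275571 and 551593 counted reads at the 3 depths.

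Introns with a mean total of at least 10 reads were tested by quasi-likelihood in edgeR 4.0.16 under R 4.3.3, with Benjamini-Hochberg adjustment over all of them. The ratio model had terms for library, read type and read type by genotype. Spliced, unspliced and total reads were fitted by genotype with library totals and TMM factors of total reads. The SE is the size of the log2 change over the root of the F statistic. The 95% interval of a ratio fold is exact and conditional, on the summed reads of the 3 libraries of each strain, and a 0 was replaced by 3 counts over the group. The tests were tested on simulated data. Replicates differed by more than counting error (chi-square per degree of freedom 32.5 to 116). Intron positions came from the coding exons of R64, which placed 280 of 309 introns. Alternatives were DESeq2 1.42.0, limma 3.58.1, other filters and scalings, the drawn reads, a replicate block and leaving out each library. The genes named are the whole set of 10, and from the second list the largest, middle and smallest ratio change, plus RIM1. The genes and lists were chosen with earlier results of these data known.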

Additional observations from a re-analysis of the deposited data

How the results depend on the processing

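Alternatives for single introns were computed for the set and for IAI11, MRA1, CMC4, TMH18 and RIM1 of the second list. Of the ratio changes, 189 of 191 alternative values over 14 introns kept their direction and their side of the threshold, as did 233 of 233 for spliced reads, both without COX5B. Over 15 introns, 227 of 250 did for total reads and 244 of 250 for unspliced reads. Ratio changes moved by over 1.5 times in fold, with the call kept, mostly in the first draws. CMC2 went from 7.42 to 5.09, 5.78 and 6.43 on the log2 scale with 200000, 400000 and 800000 reads, QCR9 from 8.50 to 10.05 and 7.82 with 200000 and 400000, MRPL44 from 8.58 to 9.35 with 400000, YML6 from 10.25 to 9.59 and RIM1 from 4.12 to 2.86 with 200000, and COX4 from 7.88 to 7.29 and IAI11 from 7.48 to 8.75 with 800000. IAI11 also went to 8.19 without prp2-1 replicate B. The fitted change of CQD1, with 0 spliced reads, ran from 8.56 to 12.18. The ratio rose in 9 of the 10 introns under each full-depth alternative except limma-voom, which called 10, COX5B with its 0 spliced reads included. In the first draw of 200000 reads, 1 intron of the set fell in total reads against 3, and 0 fell in unspliced reads against 1, as was also so in the first draw of 400000. Leaving out each library gave 0 to 1 falling in unspliced reads, and 2 to 4 of the second list falling in total reads, with 4 without prp2-1 replicate C. The total change of ERV1, near 0, turned to −0.0007 with no filter, −0.029 with limma-voom, −0.026 with a replicate block, −0.026 in the draw of 200000 and −0.015 with library totals alone, and ranged from −0.30 to 0.18 over the left-out libraries. That of CQD1 turned to 0.11 and 0.093 in the draws of 400000 and 800000 and 0.006 with scaling on introns outside ribosomal protein genes, and ranged from −0.52 to 0.13 over the left-out libraries. Neither passed the test as reported, and the cause was not tested. The unspliced change of TMH18 turned to −0.12 in the draw of 200000, and its ratio call was lost there (edgeR adjusted p = 0.265) and in the draw of 400000 (0.0538). The total call of CMC4 was lost without WT replicate A (edgeR adjusted p = 0.0505) or WT replicate C (0.0597). Scaling on introns outside ribosomal protein genes moved the median total change of all introns from −0.00 to 0.10.

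Replicate letters are shared by the strains, but no label ties them to a shared culture or day. Deviations from the group means correlated between libraries of the same letter at r = 0.0924 (A), 0.205 (B) and 0.272 (C) for the log2 ratio, and each library correlated best with its own letter there, but not for total reads (0.273, −0.0709 and 0.0149). As no label ties them, the letters were not taken as pairs in the main tests, the ratio test included, despite this pattern in the ratio. With the replicate block, 9 introns of the set rose in ratio, and 258 of all introns did against 256.

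Within the set, CQD1, QCR10 and RCF3 were the introns under the minimum at 200000 reads. IAI11 was under it at 200000 and 400000, and 7 of the second list were called in ratio at both depths against 10. TMH18 was tested at both and not called. The uncalled introns thus include untested ones, and the number of the second list tested there was not counted. Of all tested introns, 212 of 237 were called higher in the first draw of 200000 reads and 231 of 250 in that of 400000. COX5B allows no statement on its ratio.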
